A study of Mus musculus with 4 samples.

Results

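Ccnd1, Cdk1, Mcm5, Mcm6, Pcna and Birc5, 6 genes that dividing cells use to pass through the cell cycle, were followed across 4 one-colour CodeLink arrays of mouse renal cortex. They were found by their symbols in the platform's probe annotation, in which Cdk1 replaces the older Cdc2a, and each had 1 probe, so 6 of 10032 gene probes and 6 of 9076 named genes are described. The groups were DM-KO (diabetic ICAM-1-/- mice), DM-WT (diabetic ICAM-1+/+ mice), ND-KO (nondiabetic ICAM-1-/- mice) and ND-WT (nondiabetic ICAM-1+/+ mice), all male and of C57BL/6J background. ICAM-1 is an adhesion molecule that leukocytes bind on their way out of blood vessels, and the KO mice have no intact copy of its gene, per their genotype label. Diabetic mice received streptozotocin, a toxin taken up by the insulin-producing beta cells, at 200 mg/kg at 8 weeks of age, and were kept only if their blood glucose passed a set limit. Nondiabetic mice received the buffer alone. Cortex was taken 12 weeks later, at 20 weeks of age. The labels name 5 mice per group but give 1 array per group, without saying whether it held pooled RNA or that of 1 mouse. There were thus no replicates, group and array cannot be told apart, and differences between arrays are described by size.

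The cell cycle is driven by cyclins, which bind and activate cyclin-dependent kinases. D-type cyclins answer growth signals and lead to phosphorylation of the retinoblastoma protein, which frees E2F transcription factors to switch on genes for DNA synthesis. The MCM helicase then opens DNA at replication origins, the ring-shaped clamp PCNA holds polymerases on the template, and Cdk1 takes the cell into mitosis, where survivin (Birc5) helps to align and separate chromosomes. In the healthy adult kidney few tubule cells divide, while diabetes is known for kidney growth in which tubule cells enlarge more than they multiply.

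E2F sites are the best known shared feature of promoters of replication genes, so the promoters of the 6 genes were searched for them. The RefSeq promoter table (GRCm38.p6, 250 bases before and 50 bases from the transcript start) held 5 of the 6 genes, and the Ccnd1 promoter was not used here. The words searched were TTTCCCGC, TTTGGCGC, TTTCGCGC and TTTGCCGC on either strand. They were present in 3 of these 5 promoters, those of Mcm6, Mcm5 and Cdk1, and in 2.26% of all 32851 promoters of that length. The 3 promoters are shown in full because they hold those words, which are in capitals. They lie at chr1:128359656-128359955 on the minus strand for Mcm6, chr8:75109259-75109558 on the plus strand for Mcm5 and chr10:69352863-69353162 on the minus strand for Cdk1.
Mcm6: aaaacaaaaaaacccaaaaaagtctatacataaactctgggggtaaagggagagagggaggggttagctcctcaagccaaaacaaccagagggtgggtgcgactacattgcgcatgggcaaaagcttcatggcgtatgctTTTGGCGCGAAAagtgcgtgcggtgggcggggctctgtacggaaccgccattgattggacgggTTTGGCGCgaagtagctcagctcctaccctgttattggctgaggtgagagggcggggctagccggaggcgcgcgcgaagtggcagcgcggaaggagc
Mcm5: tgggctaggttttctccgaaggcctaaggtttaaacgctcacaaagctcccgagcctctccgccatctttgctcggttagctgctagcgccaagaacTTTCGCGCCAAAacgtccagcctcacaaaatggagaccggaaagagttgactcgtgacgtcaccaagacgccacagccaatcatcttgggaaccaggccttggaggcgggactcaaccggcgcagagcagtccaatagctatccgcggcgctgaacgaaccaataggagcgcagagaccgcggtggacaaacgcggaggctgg
Cdk1: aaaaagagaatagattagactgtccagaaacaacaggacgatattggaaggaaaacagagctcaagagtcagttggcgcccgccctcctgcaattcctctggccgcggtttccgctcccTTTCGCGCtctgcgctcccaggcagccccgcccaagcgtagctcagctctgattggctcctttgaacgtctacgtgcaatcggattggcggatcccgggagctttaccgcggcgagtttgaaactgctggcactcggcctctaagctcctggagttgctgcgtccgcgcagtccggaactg

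In Mcm6 a pair of matches on opposite strands overlapped from base -110 to base -99 before the transcript start, and another match began at base -47. In Mcm5 a pair overlapped from base -153 to base -142, and in Cdk1 a single match ran from base -131 to base -124. Cdk1 also held the word TTTGAA, the core of the element that holds mitotic genes silent early in the cycle, at bases -71 and -15. That word is present in 17.9% of all promoters. The word CCAAT was found in 4 of the 5 promoters, against 37.4% of all, and GGGCGG in 4, against 35.7%. Neither Pcna nor Birc5 held an E2F word in this window. A match of letters is a description and not a bound site. Beyond the 6 genes, 196 measured genes with an E2F word had a median log2 difference of 0.00 between DM-WT and ND-WT, and 4.59% of them were at least 1.2-fold higher, against 7.97% of 4289 measured genes without one. Between DM-KO and ND-KO, 210 measured genes with an E2F word had a median of 0.00, and 2.86% of them were at least 1.2-fold higher, against 4.30% of 4492 genes without one.

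The probes were read at low signal, apart from Pcna. Net intensity is the mean of a spot minus the median of its local background, in linear scanner units. The 300 negative control spots had a 95th percentile of 7.15 for DM-KO, 8.36 for DM-WT, 7.96 for ND-KO and 9.49 for ND-WT. The brightest of them, at 56.6 on DM-WT, exceeded the spots of all 6 genes there but Pcna. The scanner software marked the spots of Ccnd1, Cdk1, Mcm6 and Pcna usable on all 4 arrays, and those of Mcm5 and Birc5 on 3, with the ND-WT spot marked empty for both. Spots of 1 bacterial control probe on the same array differed with a median coefficient of variation of 7.5% to 7.87%. On the log2 scale, a difference of 2 such spots would have a standard deviation of 0.16. That value comes from net intensities of usable control spots with no offset added. It serves below as the measure of spot error for every way of processing, though their scales differ. These control spots show spot error only, not the spread between mice.

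Ccnd1 encodes cyclin D1, the growth-factor-dependent cyclin of G1 phase. The net intensity of its spot was 54.6 in DM-WT cortex, against 39.7 in ND-WT cortex, and 63.3 in DM-KO cortex, against 39.4 in ND-KO cortex. Both diabetic arrays lay above both nondiabetic arrays, and the nondiabetic arrays were nearly equal. On the normalized levels described below, 19.4% of the 5914 genes usable on all arrays had both diabetic arrays above both nondiabetic arrays.

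Cdk1 encodes the kinase that starts mitosis. Its spot read 39.0 in DM-WT cortex, against 22.8 in ND-WT cortex, and 45.1 in DM-KO cortex, against 20.4 in ND-KO cortex. On ND-KO, 5 of the 300 negative control spots were as bright as the Cdk1 spot, and on ND-WT 0 were. The groups by diabetes did not overlap, an order that 19.4% of genes usable on all arrays shared on normalized levels.

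Mcm5 encodes a subunit of the hexameric replicative helicase. The Mcm5 spot read 33.2 in DM-WT cortex, against 17.9 in ND-WT cortex, where the spot was marked empty, and 31.5 in DM-KO cortex, against 18.3 in ND-KO cortex. The nondiabetic values were low, and 6 negative control spots on ND-KO and 3 on ND-WT were as bright.

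Mcm6 encodes another subunit of the same ring. For Mcm6 the reading was 50.4 in DM-WT cortex, against 39.0 in ND-WT cortex, and 86.8 in DM-KO cortex, against 61.0 in ND-KO cortex. Mcm6 was the 1 gene of the 6 whose diabetic and nondiabetic arrays overlapped, since ND-KO was above DM-WT.

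Pcna encodes the sliding clamp, which also serves DNA repair. The clamp gene read 460 in DM-WT cortex, against 434 in ND-WT cortex, and 517 in DM-KO cortex, against 438 in ND-KO cortex. The spot was far above background on every array. The diabetic arrays were the brighter ones, by a smaller factor than for the other 5 genes on this scale.

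Birc5 encodes survivin, a subunit of the chromosomal passenger complex and a member of the inhibitor of apoptosis family. The survivin spot read 36.7 in DM-WT cortex, against 15.0 in ND-WT cortex, where the spot was marked empty, and 44.1 in DM-KO cortex, against 28.5 in ND-KO cortex. On ND-WT, 7 negative control spots were as bright, and ND-KO stood between ND-WT and the diabetic arrays.

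**Figure D1:**
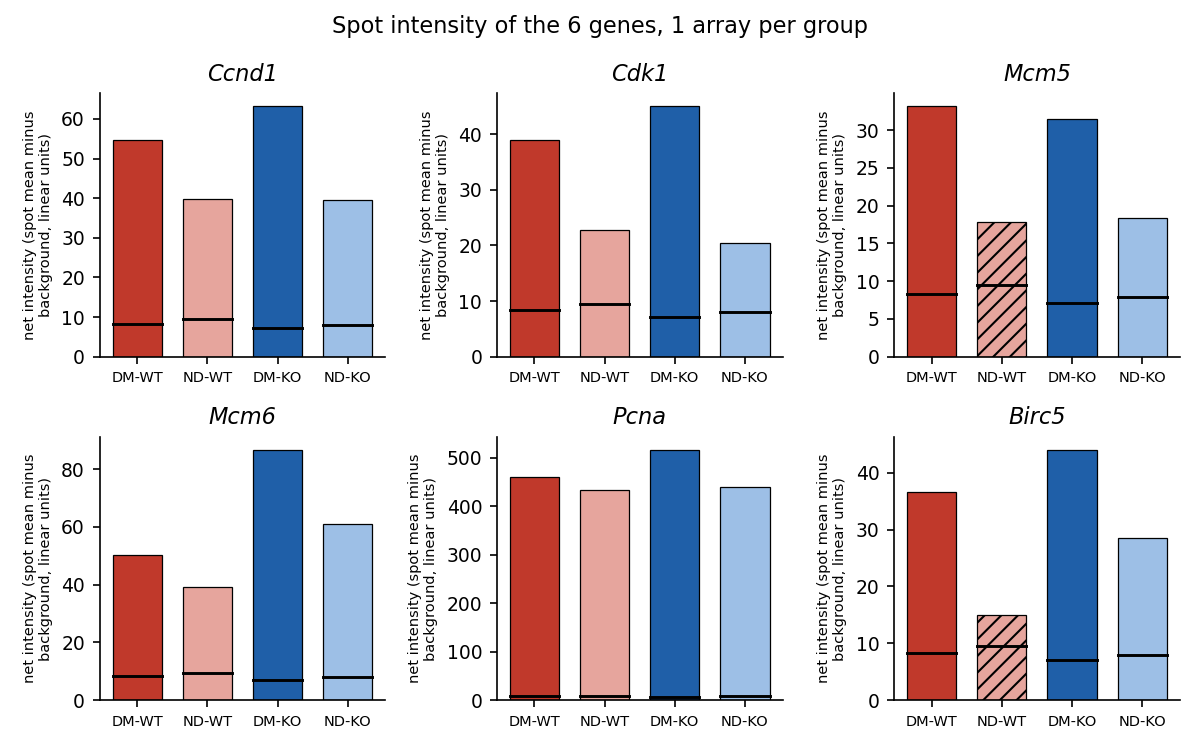
Net spot intensity (linear scanner units, vertical axis from 0) of the 6 genes on the 4 arrays, 1 bar per array, with hatched bars for spots marked empty and a black line at the 95th percentile of 300 negative controls. The diabetic bars (dark) are above the nondiabetic bars (light) of the same genotype for all 6 genes, and for Mcm6 the ND-KO bar, at 61.0, is also above the DM-WT bar, at 50.4.

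Arrays were made comparable by normexp background correction with an offset of 50, log2 conversion and quantile normalization, after which a level is a normalized log2 intensity. The DM-WT array was dimmer as a whole, with a median net intensity of 37.7, against 43.5 on ND-WT, and its bacterial control transcripts stood at 0.555 of their ND-WT level. Normalization therefore raised DM-WT values relative to the net intensities above. After it, Ccnd1 stood at 6.81 in DM-WT against 6.48 in ND-WT cortex, and at 6.75 in DM-KO against 6.45 in ND-KO cortex. Cdk1 stood at 6.55 in DM-WT against 6.17 in ND-WT, and at 6.51 in DM-KO against 6.11 in ND-KO. Among the replication genes, Mcm5 had 6.45 in DM-WT against 6.08 in ND-WT, and 6.30 in DM-KO against 6.07 in ND-KO. These 3 genes kept the split by diabetes seen in the raw readings. Mcm6 had 6.75 in DM-WT against 6.47 in ND-WT, and 7.03 in DM-KO against 6.76 in ND-KO. Pcna had 9.21 in DM-WT against 8.85 in ND-WT, and 9.08 in DM-KO against 8.87 in ND-KO. Birc5 had 6.51 in DM-WT against 6.01 in ND-WT, and a level of 6.5 in DM-KO against 6.26 in ND-KO. In 5 of the 6 genes both diabetic arrays were above both nondiabetic arrays, a pattern that 19.4% of the 5914 genes usable on all arrays showed. Those 5 include Mcm5 and Birc5, whose ND-WT spots were empty. Of the 4 genes usable on all 4 arrays, all but Mcm6 showed it. For Mcm6, DM-WT and ND-KO were nearly equal.

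The 6 genes were chosen by this diabetes difference. In an earlier reading of the same arrays, diabetes and genotype were fitted together in limma, and the genes were selected on p-values for diabetes adjusted over a cell cycle list alone. Their diabetes differences are therefore descriptions, and nothing is tested by them. Adjusted over all genes, none of the 6 passed in that fit. The adjusted p-values in limma ran from 0.171 for Cdk1 to 0.271 for Pcna, in a fit that called 1 of 6512 genes higher (0.0154%) and 0 lower, with 832 genes at an unadjusted p under 0.05. Cdk1 was 0.39 higher (SE 0.061) in that fit, and Mcm6 was the lowest of the 6 at 0.28 (SE 0.061). Among the other cell cycle genes listed here, mitogens and all p53 targets including Cdkn1a aside, Anapc5, a subunit of the anaphase-promoting complex, had the lowest p-value, with a difference of 0.32 (SE 0.069, limma adjusted p = 0.235), and lay among the 6 on that measure. Next came Gins3, a subunit of the replication helicase complex, at -0.25 (SE 0.072, limma adjusted p = 0.310).

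Between DM-WT and ND-WT the median log2 difference of the 6 genes was 0.37, beside 0.00 over 6055 genes measured on both arrays. All 6 were at least 1.2-fold higher, 4 of them measured on both arrays, where 8.08% of all measured genes were. Birc5 stood at 0.50, or 1.41-fold against its empty ND-WT spot, so the fold is a reading and not a bound. Mcm5 stood at 0.38, also against an empty spot. Cdk1 was 0.38 higher, Pcna 0.36, Ccnd1 0.34 and Mcm6 0.28.

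Between DM-KO and ND-KO the median of the 6 was 0.26, beside -0.01 over 6339 genes. Cdk1 was 0.40 higher, Ccnd1 0.31 and Mcm6 0.27, and these 3 passed 1.2-fold, as did 4.29% of all measured genes. Birc5 was 0.24 higher, Mcm5 0.23 and Pcna 0.21, which is under 1.2-fold. In both pairs together, Ccnd1, Cdk1 and Mcm6 were at least 1.2-fold higher, against 2.3% of 5914 genes. Among genes of a mean level between those of Mcm5 and Mcm6, the dimmest and brightest of the 6 apart from Pcna, the shares were smaller, at 6.22% in the WT pair, 2.25% in the KO pair and 0.735% in both. 0 of the 6 were at least 1.2-fold lower in any pair. The shares of all measured genes that were so are 6.26% between DM-WT and ND-WT, 3.47% between DM-KO and ND-KO and 1.94% in both. For Cdk1, 57 of these 5914 genes were at least as high in both pairs, and for Pcna 199 were.

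How large the differences were depended on how the dim signal was treated, because an offset of 50 is of the same size as most of these net intensities. In the authors' deposited value table, which has no offset, Cdk1 was 0.98 higher between DM-WT and ND-WT and 1.08 higher between DM-KO and ND-KO on the log2 scale. Birc5 was 1.49 and 0.57 higher there, Mcm5 1.10 and 0.72, Ccnd1 0.67 and 0.62, and Mcm6 0.58 and 0.45. For Pcna, the bright probe, the same table gave 0.29 and 0.18, and scaling the arrays by their medians gave 0.17 and 0.18. Every one of the 6 genes was higher on the diabetic array in both pairs under all 6 ways of processing that were tried. These ways reuse the same spots, and the 6 genes were chosen on this contrast, so the shared direction is a description and not support. The share of all genes that kept such a direction is not given here.

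**Figure D2:**
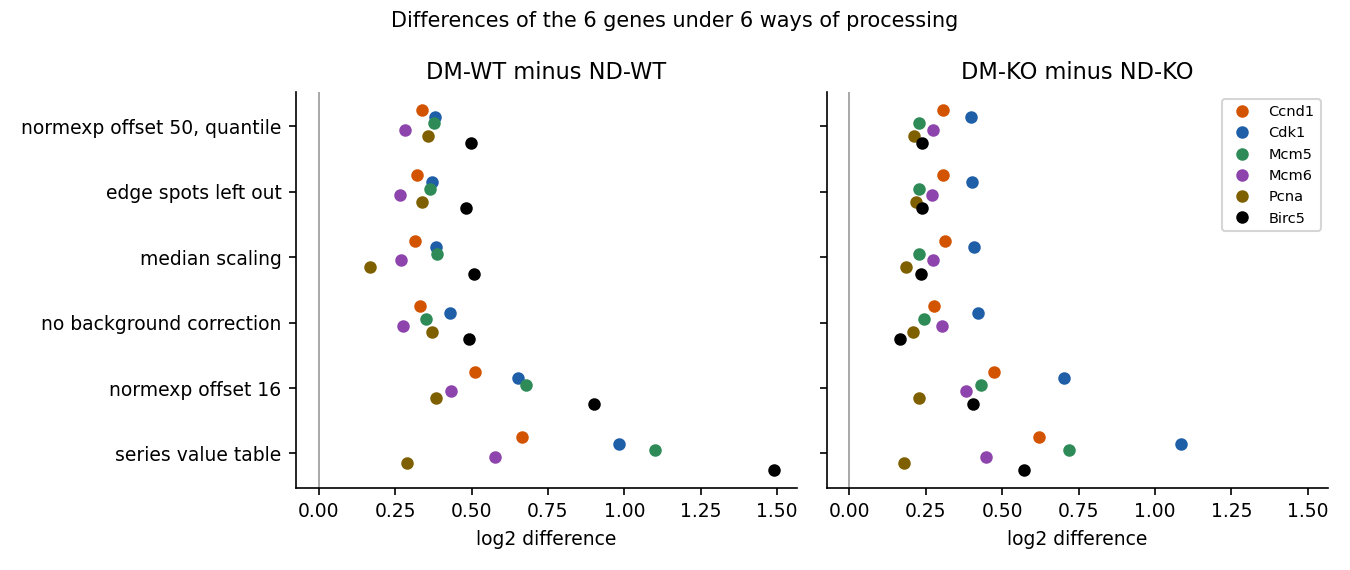
Log2 differences (horizontal axis) of the 6 genes, DM-WT minus ND-WT on the left and DM-KO minus ND-KO on the right, under 6 ways of processing (rows), with 1 colour per gene. All points are to the right of 0, and they spread from 0.17 to 1.49 for DM-WT against ND-WT, with the largest values in the deposited value table.

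The difference with diabetes could be set side by side between the genotypes, which share no array here. Subtracting the WT difference from the KO difference gave 0.02 for Cdk1, -0.01 for Mcm6 and -0.03 for Ccnd1. The choice of the 6 genes favoured small values here, because the residual of the fit they were chosen on comes from this same subtraction. The subtraction gave -0.15 for Mcm5, -0.15 for Pcna and -0.26 for Birc5. The values of Mcm5 and Birc5 rest on their empty ND-WT spots. With 1 array per group none of these values was tested.

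**Figure D3:**
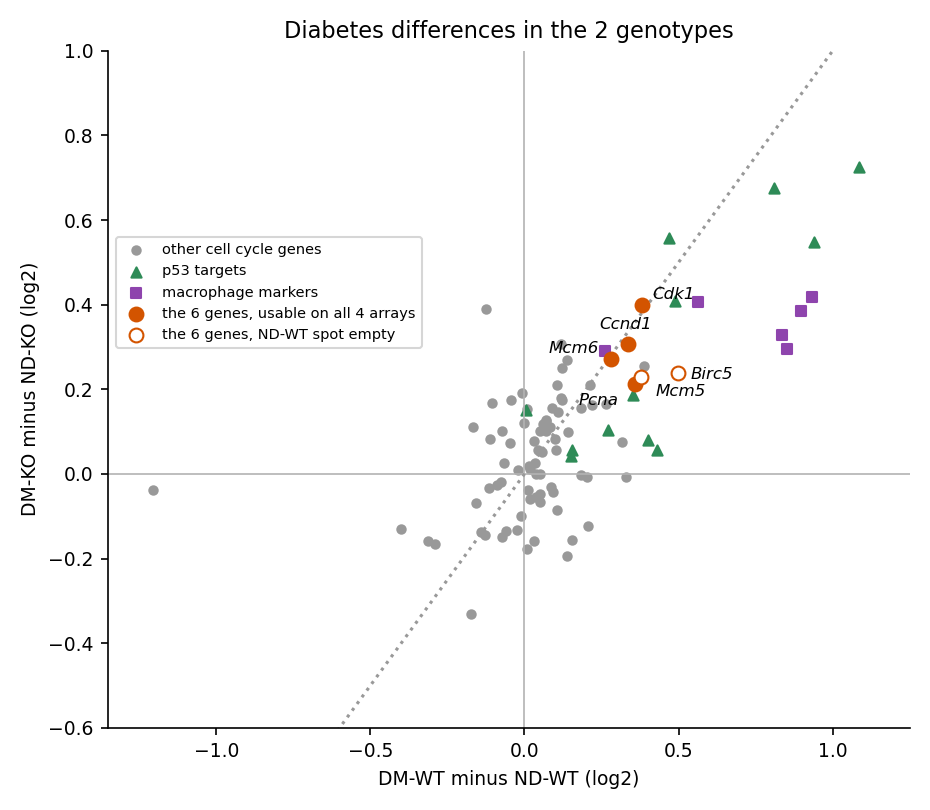
Log2 difference DM-WT minus ND-WT (horizontal) against DM-KO minus ND-KO (vertical) for the 6 genes (orange, open where the ND-WT spot was empty), other listed cell cycle genes (grey), p53 targets (green) and macrophage markers (purple) usable on all arrays, with a dotted line of equal differences. The 6 genes lie between 0.28 and 0.50 on the horizontal axis and between 0.21 and 0.40 on the vertical axis, amid the lower p53 targets.

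Genotype was the contrast that the choice of the 6 genes did not use, though it shares with that choice the residual of the limma fit, which the choice favoured when small. Mcm6 was the 1 gene of the 6 at least 1.2-fold different in both genotype pairs. It was 0.28 higher in the diabetic pair, DM-KO over DM-WT, and 0.29 higher in the nondiabetic pair, ND-KO over ND-WT, which is 1.21-fold and 1.22-fold. In the additive fit it was 0.29 higher in KO (SE 0.061, limma adjusted p = 0.397) and did not pass, in a fit that called 2 of 6512 genes higher (0.0307%) and 1 lower (0.0154%). At least 1.2-fold higher genes made up 4.97% of all in the diabetic pair and 3.24% in the nondiabetic pair, and 0.862% in both. Genes at least 1.2-fold lower made up 5.78%, 3.23% and 1.35%. With edge spots left out, Mcm6 had an adjusted p of 0.208 in limma, in a fit that called 0.0322% of 6219 genes higher and 0.161% lower.

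Between DM-KO and DM-WT the other 5 genes stood at -0.16 for Mcm5, -0.12 for Pcna, -0.06 for Ccnd1, -0.04 for Cdk1 and -0.01 for Birc5. Between ND-KO and ND-WT they stood at -0.06 for Cdk1, -0.03 for Ccnd1, -0.01 for Mcm5 and 0.02 for Pcna. Birc5 read 1.19-fold higher there, against its empty ND-WT spot. In that nondiabetic pair Birc5 stood above Mcm6 under 3 other ways of processing, at 0.89 against 0.61 in the deposited value table, 0.48 against 0.45 with an offset of 16 and 0.32 against 0.29 without background correction. None of these 5 passed in limma over all genes, with adjusted p-values from 0.701 to 0.842. With 1 array per group no interval for the spread between mice can be given, and a value that misses the threshold does not show equal levels.

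**Figure D4:**
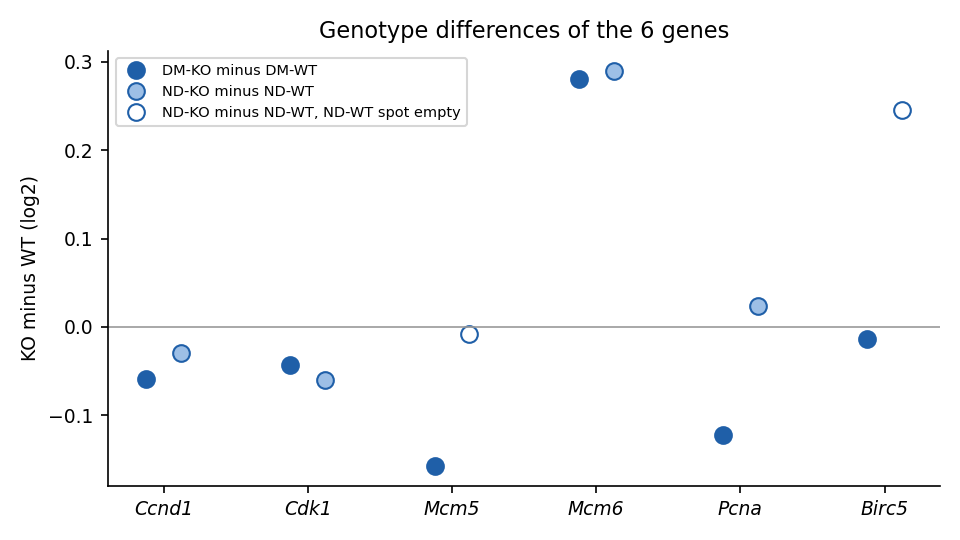
Log2 difference KO minus WT (vertical axis) of the 6 genes in diabetic mice (dark) and nondiabetic mice (light, open where the ND-WT spot was empty). Mcm6 is near 0.28 in both states, and the other 5 genes lie between -0.16 and 0.02 except for Birc5 in nondiabetic mice, at 0.25.

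The 6 genes were set among the rest of the cell cycle machinery, from lists of whole complexes and families drawn up with earlier results of these arrays known. Of 176 other genes listed, the lists of p53 targets and mitogens aside, 138 had a probe. Of these, 75 (54.3%) were usable on all 4 arrays and 42 (30.4%) on none, beside 59.7% and 30.3% of all genes. Between DM-WT and ND-WT, 51 of 78 measured genes were above 0 and 27 below, with a median log2 difference of 0.05, and 4 were at least 1.2-fold higher and 4 lower. Between DM-KO and ND-KO, 45 of 82 were above 0 and 37 below, with a median of 0.03, and 3 were at least 1.2-fold higher and 1 lower. Over all measured genes the shares are 8.08% higher and 6.26% lower in the WT pair, and 4.29% and 3.47% in the KO pair. In limma, 0 of 88 passed. With spots near an array edge left out 1 of 83 did, Cdkn1a, a CDK inhibitor that is counted here and is also a p53 target. Nothing can be read from the distance between the 6 genes and these lists, since the 6 were chosen on the same contrast.

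Among MCM subunits, which work as a ring in equal numbers, Mcm4 was 0.09 higher between DM-WT and ND-WT and 0.16 between DM-KO and ND-KO. Mcm7 was 0.12 and 0.17 higher. Mcm3 was usable on DM-KO and DM-WT only, and Mcm2 on no array. Of the 4 subunits in the limma fit, Mcm5 and Mcm6 among them, 0 passed. Of the 5 MCM genes with a promoter in the table, 4 hold an E2F word, those of Mcm3, Mcm5, Mcm6 and Mcm7.

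Among origin licensing and firing genes, 0 of 10 measured were at least 1.2-fold higher between DM-WT and ND-WT and 0 of 11 between DM-KO and ND-KO, with medians of 0.02 and -0.04. At least 1.2-fold lower were 2 of 10, Mcm10 at -0.31 and the edge spot Orc3, in the WT pair and 1 of 11, Gins3 at -0.33, in the KO pair. Of the genes around the clamp, without Pcna, 0 of 12 and 1 of 15 were at least 1.2-fold higher, with medians of 0.04 and 0.07, and 1 and 0 were lower, the 1 being Pole4 at -0.29. The clamp loader subunit Rfc2 was 0.12 and 0.31 higher. For nucleotide supply the medians were 0.08 in both pairs, with Rrm2, the regulated subunit of ribonucleotide reductase, 0.26 and 0.17 higher, and thymidylate synthase Tyms 0.22 and 0.16 higher. None of these lists had a gene that passed in limma. The retinoblastoma, E2F and DREAM list had medians of 0.04 and 0.00 with 0 of 11 and 0 of 10 genes at least 1.2-fold higher, and the anaphase-promoting complex had 1 of 8 and 0 of 7, the 1 being Anapc5 at 0.39. Kinetochore genes had 0 of 4 and 0 of 3, with 5 of 9 usable on no array, and mitosis genes had 1 of 7 and 2 of 8, with 10 of 20 usable on no array. Among mitogens and their receptors, 1 of 16 and 0 of 15 were at least 1.2-fold higher and 1 in each pair lower, with medians of 0.09 and -0.02.

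Of the other cyclins, Ccnd3 was 0.07 higher between DM-WT and ND-WT and 0.13 between DM-KO and ND-KO. Ccnb2, a mitotic cyclin that binds Cdk1, was usable on the diabetic arrays alone and was at least 1.18-fold higher in the WT pair and at least 1.10-fold in the KO pair. Ccna1 was usable on the KO arrays alone, with a difference of -0.07. Ccnd2, Ccne1, Ccne2 and Ccna2 were usable on no array. Cdk4, the kinase partner of cyclin D1, was 0.11 and 0.15 higher, and Cdk2 stood at 0.11 and -0.09. Of the proteins that work with survivin in the chromosomal passenger complex, Aurkb and Incenp were usable on no array. Mki67, the standard marker of cycling cells, was also usable on the diabetic arrays alone. It read 1.21-fold higher in the WT pair and 1.08-fold in the KO pair, against spots that were not usable. Its net intensity was 20.5 in DM-WT and 20.1 in DM-KO, and that of Ccnb2 was 18.7 and 20.1. The brightest negative control spots, at 56.6 and 23.6, exceeded both genes on those arrays. Both genes enter here only through the diabetic arrays on which they were usable.

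In the inhibitor of apoptosis family, to which survivin also belongs, 0 of 3 measured genes in the WT pair and 0 of 4 in the KO pair were at least 1.2-fold higher. Birc2 stood at 0.00 and 0.12, Birc3 at 0.06 and 0.12, and Birc6 at -0.16 and -0.07 in the WT and KO pairs. Of this family 0 of 4 tested genes passed in limma.

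**Figure D5:**
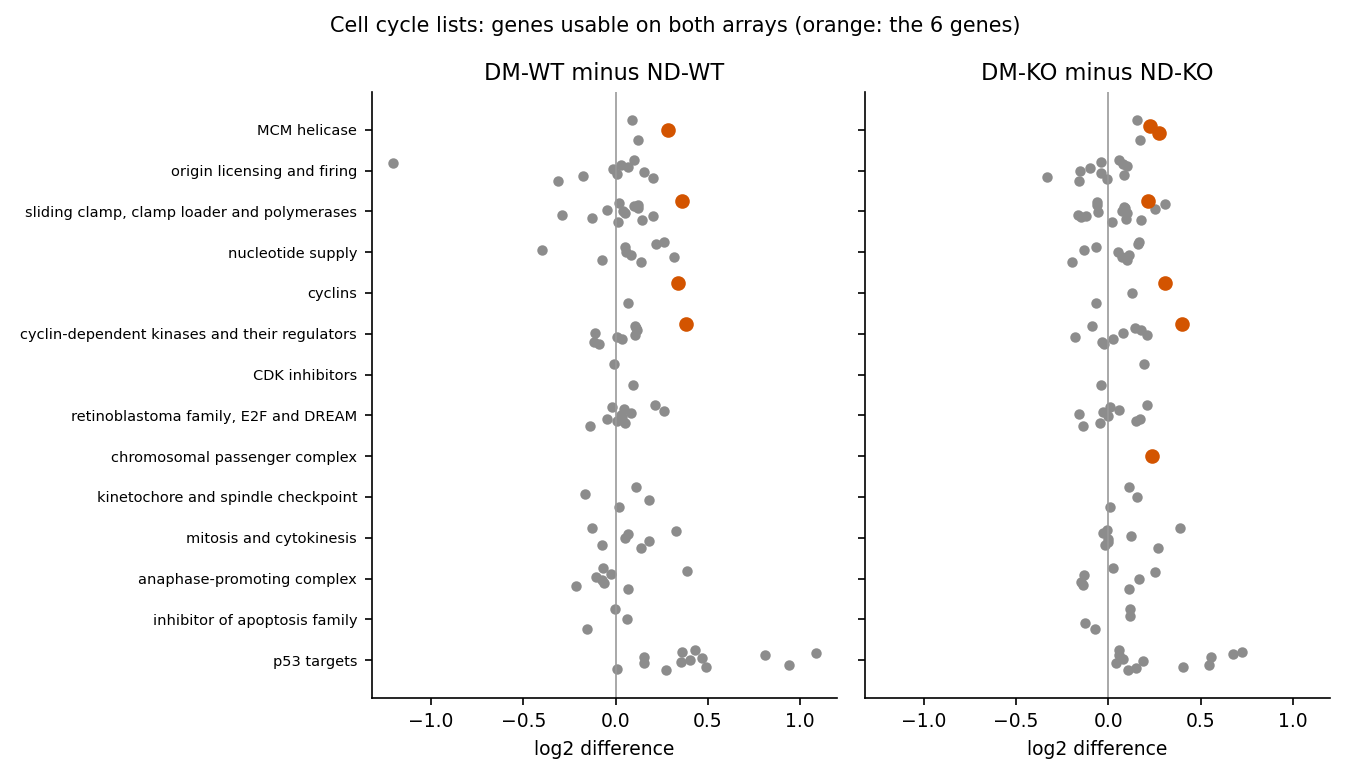
Log2 differences (horizontal axis) of genes usable on both arrays in 14 cell cycle lists (rows), DM-WT minus ND-WT on the left and DM-KO minus ND-KO on the right, with the 6 genes in orange. Most grey points lie close to 0, the p53 targets reach 1.09 on the left and 0.73 on the right, and the far-left point, Orc3 at -1.21, is printed near the array edge.

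Among CDK inhibitors, which brake the cycle, Cdkn1a (p21) had the largest difference of the list. The p21 spot read 198 in DM-WT cortex and 142 in DM-KO cortex, and was marked empty in both nondiabetic groups. Against the lowest usable level of those arrays, p21 was at least 4.70-fold higher in the WT pair and at least 2.95-fold higher in the KO pair. Cdkn1c (p57) stood at -0.01 and 0.19, and Cdkn2c (p18) at 0.09 and -0.04. Cdkn2d (p19) was usable on 1 array and Cdkn2a on none. The p21 protein binds both cyclin-CDK complexes and PCNA.

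Cdkn1a is a target of p53, the transcription factor that answers DNA damage, as is Pcna in several settings. Of the p53 targets listed, 10 of 13 measured were at least 1.2-fold higher between DM-WT and ND-WT and 5 of 12 between DM-KO and ND-KO. Of all measured genes 8.08% and 4.29% were. The medians of the p53 targets were 0.40 and 0.17. Ccng1 (cyclin G1) was 1.09 and 0.73 higher and Zmat3 0.81 and 0.67 higher. Plk2, a kinase of the polo family, was 0.94 and 0.55 higher, and Bax, a promoter of apoptosis, 0.47 and 0.56 higher. In limma 0 of 15 passed, and 7 of 15 rose with edge spots left out, a fit that called 0.836% of 6219 genes higher, 0.691% lower and none of the 6 genes, whose adjusted p-values in limma then ran from 0.0646 to 0.149.

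Markers of other cells were read beside the 6 genes, because bulk cortex can hold more dividing cells of another type, and because fewer cells of a type and less RNA per cell cannot be told apart. All 7 proximal tubule markers with a probe were measured on every array, with a summed normalized intensity of 6737 in DM-WT against 8378 in ND-WT, and 7617 in DM-KO against 8662 in ND-KO. Of these 7, 0 were at least 1.2-fold higher and 3 lower in the WT pair, and 1 was higher and 1 lower in the KO pair. Kap stood at -0.71 in the WT pair and -0.59 in the KO pair, Slc22a6 at -0.35 and -0.13, Slc34a1 at -0.34 and -0.23, and Aqp1 at -0.05 and 0.34. In the thick limb and distal tubule Calb1 stood at 0.93 and 0.72, Pvalb at 0.69 and 0.36, and Umod at 0.16 and -0.44. Further along, in the collecting duct Aqp2 at 0.30 and 0.91 and Scnn1b at 0.11 and 0.15, and in endothelium Pecam1 at 0.17 and 0.31 and Kdr at -0.25 and -0.15. The podocyte genes Nphs1 and Podxl were usable on no array. Macrophage markers were higher with diabetes. At least 1.2-fold higher were 5 of 6 measured between DM-WT and ND-WT and 6 of 6 between DM-KO and ND-KO. The shares over all measured genes are 8.08% and 4.29%. Ctss stood at 0.93 and 0.42 and C1qa at 0.90 and 0.39. Their summed normalized intensity over 6 genes was 1628 in DM-WT against 936 in ND-WT, and 1263 in DM-KO against 984 in ND-KO, while Adgre1, a defining macrophage gene, was usable on no array.

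Among lymphocyte markers, 1 of 4 measured was at least 1.2-fold higher and 1 lower between DM-WT and ND-WT, and 1 was higher of 5 between DM-KO and ND-KO. Over the 7 markers usable on at least 1 array, empty spots included, the summed normalized intensity was 873 in DM-WT against 751 in ND-WT. It was 812 in DM-KO against 793 in ND-KO. Single genes weigh heavily in this sum, such as Ighm at a log2 level of 7.38 in DM-WT against 6.03 in ND-WT. Cd79a went the other way, at 7.32 against 7.84. Cd3e, Cd8a, Cd79b and Ms4a1 were usable on no array. The immunoglobulin gene Ighm read 2.57-fold higher in the WT pair, against an ND-WT spot that was not usable. It stood at 0.27 in the KO pair, and Cd79a at -0.52 and 0.17. All 3 neutrophil genes with a probe were usable on no array. In red cell precursors, Alas2 stood at 0.57 and -0.16 and Slc4a1 at 0.07 and 0.18, and of the fat cell genes Lpl stood at -0.46 and -1.22 and Fabp4 at 0.62 and 0.09. The fat cell genes Adipoq and Cfd were usable on ND-KO alone, with net intensities of 47.9 and 80.6 there. On the other arrays Adipoq read from 5.59 to 12.4 and Cfd from 8.40 to 11.1. The part of macrophages or other cells in the differences of the 6 genes was not tested.

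Apart from the 6, the genes with the closest pattern over the 4 arrays were found by the distance between levels centred on each gene's mean, among 5910 genes usable on all arrays. The nearest to the mean pattern of the 6 were Upp1, a uridine phosphorylase, at a distance of 0.022, and S100a13, a small calcium-binding protein, at 0.027. They were followed by the LIM protein gene Csrp1 at 0.035, the monocyte chemokine Ccl2 at 0.054 and Slc13a1, a sulfate transporter of the proximal tubule, at 0.056. Of the 6 genes themselves, Ccnd1 lay at 0.080 from their mean, with 18 genes closer, and Mcm6 at 0.26, with 959 genes closer. With 4 arrays such a pattern is shared by many genes, and no common control follows from it.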

How the data were processed

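Biotin-labelled cRNA from renal cortex of 4 groups was read on CodeLink arrays, 1 for each group, per the labels. The deposited scanner tables hold linear intensity, as spot mean and local background median, unsubtracted and unscaled, per the file headers. The deposited value table holds intensity too. It equals mean minus background divided by 1 constant per array, by a rule that is not given in the sources used here. This held within 0.1% for 100% of the gene probes compared, 8093 on DM-KO to 8404 on DM-WT. Probes with a very low value or none were not compared. Genes are not centred in it.

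With limma 3.58.1 under R 4.3.3, the deposited intensity values were background-corrected (normexp, offset 50) and converted to log2. Control spots were then left out and poor spots set to missing, and the remaining values were quantile-normalized. Genes with a missing array were not fitted. Of 10032 gene probes, 9208 were named with 1 symbol, 1 with several and 823 with none. Different probes of 1 gene were averaged. The additive fit over 4 arrays (1 residual degree of freedom, Benjamini-Hochberg) took genes usable on at least 2 arrays. The spread behind a p-value is a gene's departure from additivity of diabetes and genotype, moderated across genes. It is not a spread between replicate arrays or mice. On simulated data with independent errors, the fit was required only to recover added differences, which does not check its p-values for these arrays.

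The 6 genes and all lists were chosen with earlier results of these data known. Complexes and families were listed whole. Named genes were all MCM subunits, cyclins, CDK inhibitors and passenger genes, genes at least 1.2-fold different one way in both pairs (at most 4 per list), the 2 largest per cell type and the 5 nearest patterns, while other names were chosen after their values were seen. A fold against a spot marked empty uses its own level or the lowest usable level on that array, whichever is higher. Against its own level the fold is a reading, and "at least" is used only against the lowest usable level.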

Additional observations from a re-analysis of the deposited data

How the results depend on the processing

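No paired analysis was possible because each group had 1 array and the labels carry no replicate numbers. For the same reason no array could be left out of the fit with a residual degree of freedom remaining. The median log2 difference of the 6 genes, 0.37 between DM-WT and ND-WT and 0.26 between DM-KO and ND-KO, moved to 0.58 and 0.42 with an offset of 16 and to 0.82 and 0.60 in the deposited value table, where the offset is smaller or absent. It stayed within spot error without background correction, with median scaling, with edge spots left out, and, as a choice made after seeing the data, over members usable on both arrays. For single genes and pairs, 14 of 24 differences in the value table, 9 of 24 with an offset of 16 and 1 of 24 with median scaling moved by more than spot error, and 0 reversed among differences of at least 1.2-fold. The number of genes that passed for diabetes, 1 in all, was 0 with an intensity trend, no covariate, the value table, an offset of 16 or no background correction, 82 with median scaling and 95 with edge spots (columns 44 to 48 of the upper block) left out. For genotype it was 3, and 0 in the value table, 1 with an offset of 16, 14 with median scaling and 12 with edge spots left out. None of the 6 genes passed in any of these fits. The cause of these shifts was not tested. None of the 6 probes is printed at the edge. Low signal limits Cdk1, Mcm5 and Birc5 most.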

Other observations

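Some cell cycle genes outside the 6 differed by genotype more than with diabetes, and they were chosen after their values were seen. Hmgb2, a chromatin protein abundant in dividing cells, read 378 in DM-KO cortex against 197 in DM-WT cortex, and 380 in ND-KO cortex against 259 in ND-WT cortex, as net intensity. Its normalized log2 level was 0.52 higher in the diabetic pair and 0.47 higher in the nondiabetic pair. Wee1, a kinase that restrains Cdk1, stood at -0.46 in the diabetic pair and -0.28 in the nondiabetic pair, and Cdkn1c, a CDK inhibitor, at -0.32 and -0.52. None passed in limma over all genes, with adjusted p-values of 0.267 for Hmgb2, 0.397 for Wee1 and 0.382 for Cdkn1c. Each value rests on 1 array per group.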
